A study of Mus musculus with 21 samples.

Results

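A set of 10 genes that encode neuropeptide precursors was followed in AGRP and POMC neurons of fed and food-deprived (FD) mice: *Nts*, *Tac1*, *Tac2*, *Sst*, *Gal*, *Pdyn*, *Penk*, *Cck*, *Adcyap1* and *Nmb*. They were 10 of the 35266 genes listed and were picked by symbol. The 10 symbols were chosen by someone who knew their levels in these libraries in all 4 groups, so the levels and fold changes of these genes are given as a description, with no p-value. Which of them met a significance criterion is also listed below, as a description only and not as a test. Each library held RNA from 44 to 214 fluorescent neurons of the hypothalamic arcuate nucleus, picked manually from 1 male mouse aged 46 to 56 days on a C57BL/6J background. AGRP neurons came from NPY-hrGFP mice, in which the *Npy* promoter drives the fluorescent protein, and POMC neurons from Pomc-GFP mice. Fed mice (5 AGRP, 5 POMC) ate freely and FD mice (6 AGRP, 5 POMC) had only water for 24 h, and every mouse was moved alone to a clean cage for that day. A transgene that marks *Npy* or *Pomc* cells also limits the sample to cells that express it at that age.

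Neuropeptides are cut from longer precursor proteins inside secretory vesicles and act on G protein-coupled receptors of nearby or distant cells, usually more slowly than the fast transmitter of the same neuron. In the arcuate nucleus, AGRP neurons promote feeding through AGRP, NPY and GABA, and POMC neurons restrain it through melanocortins made from POMC. Other peptides in these cells are less studied, and a single neuron type often makes several. All levels below are TPM, the deposited unit that is scaled to library size and transcript length, so that levels of different genes can be compared. All log2 fold changes are fitted on the counts across all genes, with their standard errors (SE).

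The libraries held 9822298 to 37663979 reads counted to genes. *Agrp* and *Npy* together stood at 12064 to 68921 TPM in the AGRP libraries and 5.45 to 225.9 TPM in the POMC libraries, and *Pomc* and *Cartpt* together at 8809 to 37160 TPM in the POMC libraries and 114 to 227 TPM in the AGRP libraries. Over 23 markers of glia, vessels, tanycytes and pituitary cells, the summed level was 13.3 to 53.6 TPM in fed AGRP, 8.54 to 24.7 TPM in FD AGRP, 9.23 to 23.3 TPM in fed POMC and 14.9 to 31.4 TPM in FD POMC libraries, with *Cldn11* at 0 throughout. The labels give 3 amounts of ERCC spike-in, a mix of synthetic RNAs added to the purified RNA: 8 libraries got 1 µl, 6 got 10 µl, and 7 got a volume scaled to how many cells were sorted. The 10 µl libraries were fed AGRP 2 and 3, FD AGRP 4 and 6, and FD POMC 4 and 5. None was fed POMC, and within POMC neurons the 1 µl set alone held both states, with 3 fed and 3 FD libraries. The amount of 10 µl is known from the labels, while the study's methods describe only the other amounts. Reads of the spike-ins came to 8.90% to 22.6% of the gene counts in the 10 µl set and 0.219% to 1.46% in the other 15 libraries.

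Among the 10 genes, *Sst* had the highest mean level in AGRP neurons and *Pdyn* in POMC neurons. In fed AGRP libraries *Sst* held a mean of 92.8% of the summed TPM of the 10 genes, followed by *Nmb* at 2.88%. In FD AGRP libraries *Sst* held 68.6%, and *Nmb* (13.4%), *Nts* (9.39%) and *Pdyn* (5.43%) took most of the rest. In POMC libraries *Pdyn* held 52.0% when fed and 67.5% when FD. The summed level of the 10 genes was 1485 ± 736 TPM (SD, n = 5) in fed AGRP, 1778 ± 673 TPM (n = 6) in FD AGRP, 495 ± 120 TPM (n = 5) in fed POMC and 509 ± 81.6 TPM (n = 5) in FD POMC libraries. The order below *Sst* in fed AGRP neurons was not resolved, since the ranges of each pair of neighbours from *Nmb* down overlapped. In fed POMC neurons the range of *Pdyn*, 176 to 303 TPM, overlapped that of the next gene, *Sst*, 1.73 to 213 TPM. In FD POMC neurons *Pdyn* stood clear of the next gene, *Tac1*.

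**Figure D1:**
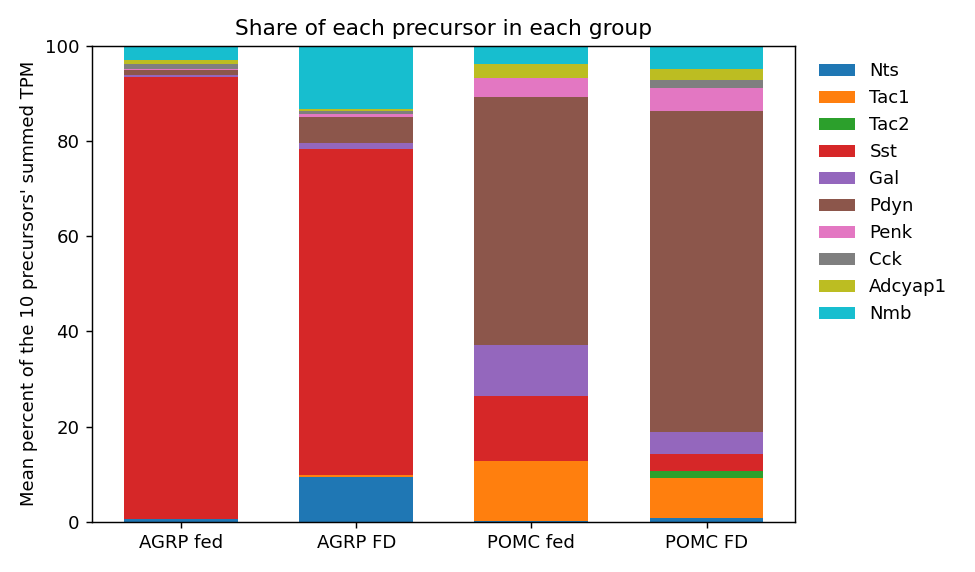
Stacked bars give the mean percent of the summed TPM of the 10 precursors held by each gene in the fed and FD libraries of each neuron type. *Sst* fills 92.8% of the fed AGRP bar and 68.6% of the FD AGRP bar, and *Pdyn* fills 52.0% and 67.5% of the POMC bars.

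*Nts*, *Nmb* and *Pdyn* were higher in every FD AGRP library than in any fed AGRP library. The stretches before their transcription start are printed to show the DNA that precedes these 3 genes. For *Sst*, the highest of the 10 in AGRP neurons, 30 bases before its start are printed to show the cAMP response element. All the stretches are from RefSeq (GRCm38.p6), which held windows for 9 of the 10 genes, *Penk* having no entry. All 4 genes lie on the minus strand, and bases that an annotated transcript of the gene covers were left out for the 3 longer stretches. The *Sst* bases lie within the *Sst* gene of that annotation, which spans 23889573 to 23890958. Capitals mark a motif.
*Nts*, chr10:102490487-102490668: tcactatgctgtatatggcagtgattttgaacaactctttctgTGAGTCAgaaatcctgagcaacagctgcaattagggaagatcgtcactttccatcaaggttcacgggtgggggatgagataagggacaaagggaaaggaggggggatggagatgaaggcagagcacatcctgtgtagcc
*Nmb*, chr7:80905077-80905312: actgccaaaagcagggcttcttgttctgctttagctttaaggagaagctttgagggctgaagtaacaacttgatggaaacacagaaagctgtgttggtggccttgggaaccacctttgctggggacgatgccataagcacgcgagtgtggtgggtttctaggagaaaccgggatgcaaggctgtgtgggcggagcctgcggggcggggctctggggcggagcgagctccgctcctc
*Pdyn*, chr2:129699939-129700188, the upstream of 2 starts: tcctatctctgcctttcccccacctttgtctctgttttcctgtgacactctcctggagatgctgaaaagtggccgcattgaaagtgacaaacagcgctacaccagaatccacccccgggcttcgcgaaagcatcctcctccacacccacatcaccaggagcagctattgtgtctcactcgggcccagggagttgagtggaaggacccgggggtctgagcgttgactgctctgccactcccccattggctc
*Sst*, chr16:23890874-23890903: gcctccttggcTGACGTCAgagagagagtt

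The motifs searched on both strands of the 250 bases before each start were the cAMP response element TGACGTCA, AP-1 TGANTCA, the E-box CACGTG, FOXO GTAAACA and STAT TTCNNNGAA. Of 32851 windows of that length, 1.55% held the cAMP response element, 6.75% AP-1, 6.02% the E-box, 3.17% FOXO and 7.02% STAT. The *Nts* window held 1 AP-1 match, from 207 to 201 bases before the start, and the *Sst* window 1 cAMP response element, from 48 to 41 bases before. *Tac1* held 1 E-box, *Cck* 1 E-box and 1 FOXO match, and the downstream *Pdyn* start 1 STAT match. The *Tac1* E-box, from 61 to 56 bases before its start, lay within the annotated gene, which begins at 7554879. The windows of *Nmb* and of the upstream *Pdyn* start held none of these letters, so no motif of the 5 was shared by the 3 genes at these starts. A match is a description of the letters only.

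*Nts* (ENSMUSG00000019890, chromosome 10, 102481760 to 102490418 in mm10) encodes neurotensin and neuromedin N. In FD AGRP libraries it ranged from 60.5 to 280.1 TPM with a median of 129, and in fed AGRP libraries 1 to 5 it stood at 0.429, 18.5, 0.185, 0.288 and 8.08 TPM. The groups did not overlap, and fed library 2, of the 10 µl set, was the highest of the fed ones. The mean was 143.5 ± 80.9 TPM (SD, n = 6) against 5.50 ± 8.02 TPM (n = 5), a ratio of 26.1, and the fitted log2 fold change was 4.91 (SE 1.19). Within the spike-in sets the ratio of FD to fed means ran from 14.1 in the 10 µl set to 653 in the 1 µl set, which had 1 library a group, and in each set the lowest FD library was above the highest fed one. In pooled cells, more cells that express a gene cannot be told apart from more RNA per cell.

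In POMC neurons *Nts* was near the detection limit in most libraries. FD POMC libraries 1 to 5 held 0.299, 0.413, 0.24, 0.849 and 23.05 TPM, and fed POMC libraries 3.53, 0, 0.223, 0.148 and 0.294 TPM. FD library 5, of the 10 µl set, stood alone. The fitted log2 change was 2.32 (SE 1.19), and without that library it was -1.21, so 1 library set its direction. Markers of arcuate dopamine neurons (*Th*, *Slc6a3* and *Slc18a2*, none at 0 throughout) summed to 8.55 to 15.4 TPM in fed AGRP, 13.9 to 55.0 TPM in FD AGRP, 127 to 154 TPM in fed POMC and 88.4 to 170.4 TPM in FD POMC libraries. In POMC libraries *Slc18a2* made up most of this sum, with means of 134.8 TPM in fed and 140.6 TPM in FD mice. *Th* went the other way, with means of 2.402 and 0.865 TPM in fed and FD POMC libraries and 4.757 and 10.06 TPM in fed and FD AGRP libraries. *Slc6a3* had means of 1.626 and 0.545 TPM in POMC and 0.0736 and 1.515 TPM in AGRP libraries. The sum is thus not read as an amount of dopamine neurons. The part of these markers in the *Nts* result was not tested.

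*Nmb* (ENSMUSG00000025723, chromosome 7, 80902228 to 80905076) encodes neuromedin B, a bombesin-like peptide. It ranged from 129 to 317 TPM in FD AGRP libraries with a median of 173, and stood at 22.7, 23.5, 58.8, 21.8 and 44.4 TPM in fed AGRP libraries 1 to 5. Every FD library was above every fed one. The means were 205 ± 86.8 TPM (n = 6) and 34.2 ± 16.7 TPM (n = 5), a ratio of 5.98, with a log2 fold change of 2.87 (SE 0.45). POMC libraries held it at 31.4, 25.9, 21.9, 23.1 and 15.1 TPM when FD and 4.63, 28.7, 22.5, 12.8 and 23.3 TPM when fed, a log2 change of 0.25 (SE 0.43). These groups overlapped, and their levels lay near those of fed AGRP neurons. The annotation places *Nmb* in part within *Sec11a* on the same strand, so reads in the shared stretch are uncertain. *Sec11a* itself was at 70.3 ± 15.3 TPM in fed and 94.8 ± 35.6 TPM in FD AGRP libraries.

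*Pdyn* (ENSMUSG00000027400, chromosome 2, 129686565 to 129699833) encodes prodynorphin, the source of dynorphins, which act on the kappa opioid receptor. FD AGRP libraries held 39.5 to 140.3 TPM with a median of 93.1, and fed AGRP libraries 14.7, 5.81, 23.1, 14.8 and 7.96 TPM. The groups did not overlap, and the means were 90.5 ± 40.1 TPM (n = 6) and 13.3 ± 6.81 TPM (n = 5), a ratio of 6.81. The log2 fold change was 3.08 (SE 0.33), the smallest SE among the 9 precursors tested, and the ratio of means lay between 6.22 and 7.66 in each of the 3 spike-in sets. POMC neurons held more *Pdyn* in both states: 326, 311, 283, 332 and 470.1 TPM in FD libraries 1 to 5 and 176, 276, 276, 303 and 231 TPM in fed libraries. FD library 5 was highest, and the log2 change in POMC neurons was 0.34 (SE 0.31). The AGRP level was thus 19.0-fold below the POMC level in fed mice and 3.81-fold below it in FD mice, with no overlap in either state. *Pomc* and *Cartpt* together were at 114 to 223 TPM in fed and 138 to 227 TPM in FD AGRP libraries.

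**Figure D2:**
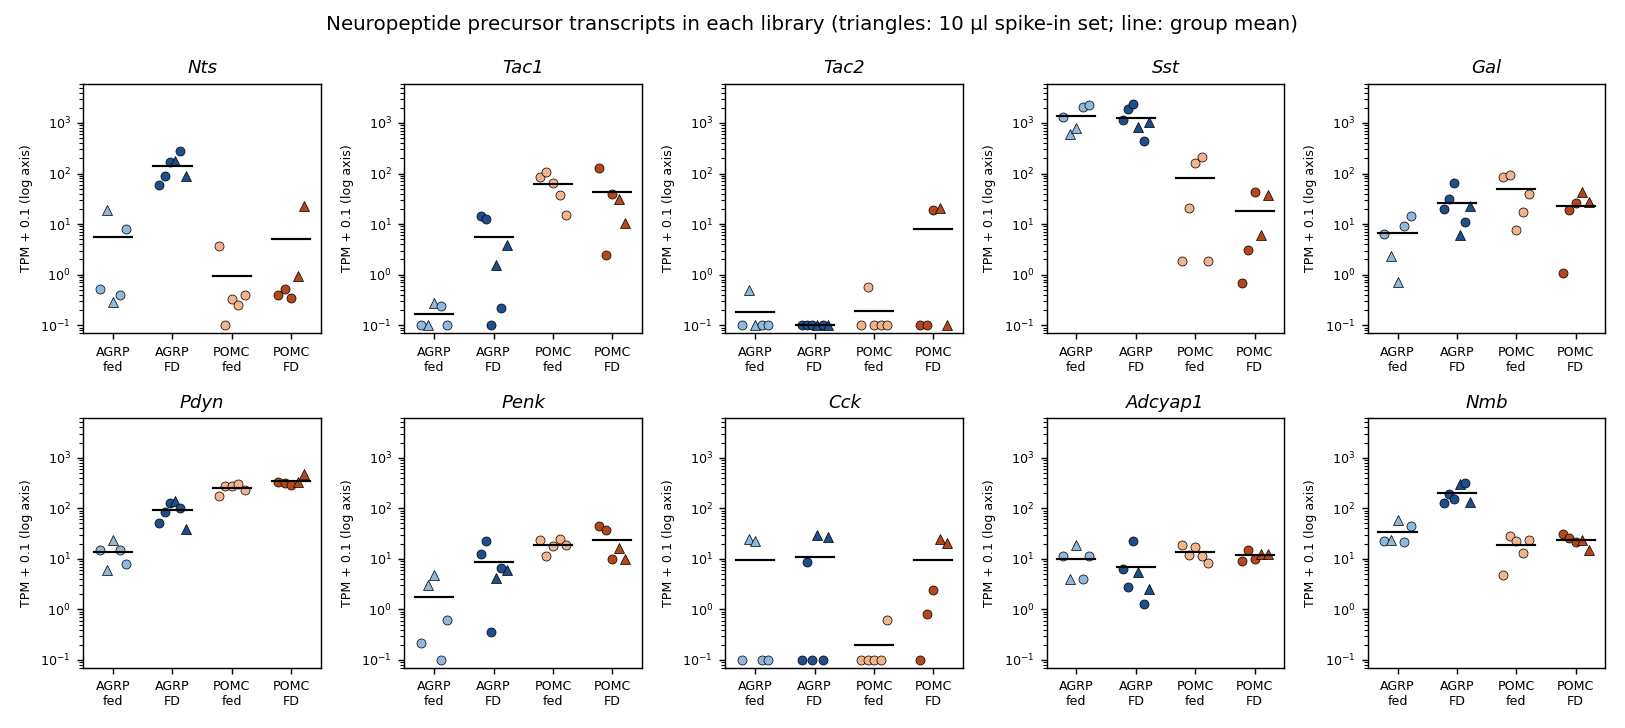
Each panel plots the level of 1 precursor in every library as TPM + 0.1 on a log axis, with a line at the group mean and triangles for libraries of the 10 µl spike-in set. *Nts*, *Nmb* and *Pdyn* lie higher in all 6 FD AGRP libraries than in the 5 fed ones, *Sst* lies higher in all AGRP than in all POMC libraries, and *Cck* is at 20.1 TPM or more only in triangles.

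*Penk* (ENSMUSG00000045573, chromosome 4, 4133531 to 4138477) encodes proenkephalin, the source of enkephalins. Fed AGRP libraries held 0.116, 2.98, 4.80, 0 and 0.514 TPM, and FD AGRP libraries 0.253 to 22.0 TPM with a median of 6.09. These overlapped, and the fitted log2 change was 2.57 (SE 0.92). The 5 fed POMC libraries, at 23.1, 11.4, 17.8, 24.3 and 18.6 TPM, all lay above the fed AGRP libraries, with a log2 difference of -3.67 (SE 0.98) for AGRP over POMC. FD POMC libraries held 43.7, 37.1, 9.85, 16.3 and 9.69 TPM and overlapped both the fed POMC and the FD AGRP libraries. *A830012C17Rik* overlaps *Penk* on the opposite strand, and strand was not used in counting, but that gene was at 4.43 TPM at most in fed AGRP libraries and 0 in FD AGRP libraries.

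*Tac1* (ENSMUSG00000061762, chromosome 6, 7554879 to 7562977) encodes substance P and neurokinin A. It was a POMC transcript here, at 131.1, 2.37, 40.0, 31.1 and 10.4 TPM in FD POMC libraries 1 to 5 and 85.6, 107.6, 64.2, 37.2 and 14.8 TPM in fed ones. The POMC groups overlapped and their log2 difference was -0.70 (SE 0.90). In fed AGRP libraries it was all but absent, at 0, 0, 0.177, 0.138 and 0 TPM, which came from 2 reads. FD AGRP libraries held 14.2, 12.6, 0, 1.45, 0.123 and 3.81 TPM, so libraries 1 and 2 carried most of the signal and library 3 had none. The groups overlapped. The pooled counts, 232 reads against 2, gave a ratio of 82.1 with a 95% counting interval of 22.5 to 682 that covers counting error only. The fitted log2 change of 6.32 (SE 1.35) rests on those 2 reads, and it met the level criterion through the POMC libraries, since its own mean was 2.18 CPM in FD AGRP. It was not called by limma-voom. Nor was it called when the 2 AGRP groups were fitted alone, a fit without the POMC libraries through which it met the level criterion.

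*Tac2* (ENSMUSG00000025400, chromosome 10, 127724478 to 127731767) encodes neurokinin B, which in the arcuate nucleus marks kisspeptin neurons together with *Pdyn*. It did not pass the count filter. FD POMC libraries 3 and 4 held 19.1 and 20.7 TPM, and the other 3 held 0. Fed POMC library 2 was at 0.475 TPM and fed AGRP library 2 at 0.408 TPM, and all other libraries, including the 6 FD AGRP ones, were at 0. A count of 0 allows up to 3 reads, which is 0.0911 to 0.223 CPM in the FD AGRP libraries. *Kiss1* was at 1.33 TPM in FD POMC library 3 and 0 in library 4, and *Tacr3*, the neurokinin B receptor of those neurons, at 0 and 0.088 TPM.

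*Sst* (ENSMUSG00000004366, chromosome 16, 23889581 to 23890844) encodes somatostatin, an inhibitory peptide. It was among the most abundant transcripts of AGRP neurons, ranked 46 of all genes by mean TPM when fed and 62 when FD. Fed AGRP libraries held 1288, 593, 798, 2048 and 2294 TPM, and FD AGRP libraries 440.1 to 2334 TPM with a median of 1096. These overlapped across the whole fed range, with a log2 change of 0.13 (SE 0.73). Fed POMC libraries held 1.73, 20.7, 163, 213 and 1.73 TPM, and FD POMC libraries 0.587, 2.97, 42.7, 6.11 and 36.8 TPM, which overlapped, with a log2 change of -2.18 (SE 0.84). Every AGRP library was above every POMC library. The ratio of means was 17.5 in fed and 71.9 in FD mice, and the log2 differences were 4.02 (SE 0.86) and 6.33 (SE 0.97). In fed POMC libraries 3 and 4, where *Sst* was highest, *Agrp* and *Npy* together were at 42.1 and 56.2 TPM. They were at 11.03, 5.45 and 132 TPM in fed libraries 1, 2 and 5, and at 42.6, 63.6, 74.4, 225.9 and 218 TPM in FD libraries 1 to 5. Their part in the *Sst* level was not tested.

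*Gal* (ENSMUSG00000024907, chromosome 19, 3409919 to 3414472) encodes galanin, a peptide known to stimulate feeding. Fed AGRP libraries held 6.38, 2.27, 0.61, 9.03 and 14.6 TPM, and FD AGRP libraries 6.10 to 65.0 TPM with a median of 20.99. Fed POMC libraries held 86.8, 91.4, 7.54, 17.5 and 39.3 TPM, and FD POMC libraries 0.988, 18.9, 26.2, 42.1 and 27.9 TPM. The log2 change with food deprivation was 2.20 (SE 0.84) in AGRP and -1.29 (SE 0.83) in POMC neurons. Fed POMC libraries 1 and 2, the highest, had spike-in scaled to cell number, a set with no FD POMC library. Within the 1 µl set the POMC means were 21.5 TPM in fed and 15.4 TPM in FD libraries. The order of the means was fed POMC, FD AGRP, FD POMC and fed AGRP, and each neighbouring pair overlapped.

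*Adcyap1* (ENSMUSG00000024256, chromosome 17, 93199422 to 93205485) encodes PACAP, a peptide that excites AGRP neurons when released by their inputs. Its level was low in the 4 groups. Group means were 9.85 ± 6.20 TPM in fed AGRP (n = 5), 6.64 ± 7.80 TPM in FD AGRP (n = 6), 13.4 ± 4.29 TPM in fed POMC (n = 5) and 11.6 ± 2.30 TPM in FD POMC libraries (n = 5). FD AGRP library 3, at 22.1 TPM, was the highest of all 21 and the other 5 lay between 1.16 and 6.12 TPM. POMC libraries ranged from 8.11 to 18.8 TPM when fed and from 9.01 to 14.7 TPM when FD. Those 5 FD AGRP libraries thus lay below every POMC library. The log2 change was -0.31 (SE 0.62) in AGRP and -0.36 (SE 0.64) in POMC neurons. For AGRP over POMC the log2 difference was -0.67 (SE 0.65) in fed and -0.63 (SE 0.61) in FD mice.

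*Cck* (ENSMUSG00000032532, chromosome 9, 121489825 to 121495689) encodes cholecystokinin, a satiety peptide of the gut that is also made widely in cortex. Its level went with the spike-in set and not with the neuron type or feeding state. All 6 libraries of the 10 µl set held 20.1 to 29.0 TPM, whatever their group. In the other 15 it was at 0 in 11, and it reached 8.51 TPM in FD AGRP library 2, 2.27 and 0.709 TPM in FD POMC libraries 3 and 2, and 0.505 TPM in fed POMC library 5. By group the means were 9.40 TPM in fed AGRP, 10.7 TPM in FD AGRP, 9.48 TPM in FD POMC and 0.101 TPM in fed POMC libraries, the group with no 10 µl library. The fitted log2 change of 6.22 (SE 2.19) in POMC neurons and the log2 difference of 6.19 (SE 2.19) for AGRP over POMC in fed mice thus compare groups with and without 10 µl libraries. Within the 1 µl set *Cck* was at 0, 0.709 and 2.27 TPM in FD and 0, 0 and 0.505 TPM in fed POMC libraries. With the set as a block they were 2.73 and 1.21, and without the 6 libraries *Cck* did not pass the count filter.

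Among the 16513 genes tested, 11 were higher in all 6 libraries of the 10 µl set than in all 15 others and 0 were lower. This count was made after the *Cck* values were seen. They were *Cck*, *Slc17a7*, *Neurod2*, *Neurod6*, *Eomes*, *Zic1*, *Meis2*, *Crym*, *Pcp4l1*, *Dcn* and *Zeb2*. *Slc17a7*, the vesicular glutamate transporter of cortical and hippocampal neurons, stood at 5.02 to 8.65 TPM in the 10 µl set and at 0 in 14 of the 15 others. *Neurod6*, a transcription factor of cortical excitatory neurons, stood at 3.03 to 6.19 TPM and at 0 in all 15 others, and *Neurod2*, *Meis2* and *Dcn* were likewise at 0 in all 15. The same count for the 1 µl set was 4 higher and 21 lower genes, and for the cell-number set 7 higher and 14 lower. Whether RNA of other cells came with the 10 µl libraries, and its part in the *Cck* level, was not tested.

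**Figure D3:**
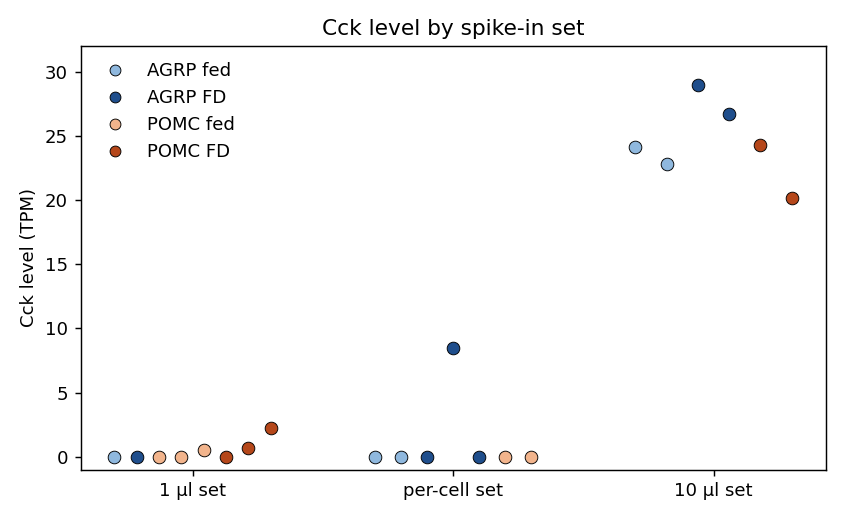
The level of *Cck* in TPM is plotted for each library, grouped by the amount of spike-in on the label and coloured by neuron type and state. The 6 libraries of the 10 µl set sit between 20.1 and 29.0 TPM in 3 different groups, above all 15 others, whose highest is 8.51 TPM.

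A gene was called where the edgeR quasi-likelihood q-value over all 16513 genes was under 0.05, the log2 fold change beyond 1 in either direction, and the mean over 20 CPM (counts scaled to library size) in at least 1 of the 4 groups. Of the 9 precursors tested, 4 were called in FD against fed AGRP neurons (*Nts*, *Tac1*, *Pdyn* and *Nmb*, all higher in FD), where 4.46% of all genes were called. None was called in POMC neurons, where 0.266% of all genes were, with *Sst* and *Cck* at an unadjusted p under 0.05 and 0 calls by limma-voom or DESeq2. In fed mice 3 differed by this criterion between AGRP and POMC neurons (*Sst* higher in AGRP, *Tac1* and *Pdyn* in POMC), beside 4.01% of all genes. In FD mice 5 did (*Nts*, *Sst* and *Nmb* higher in AGRP, *Tac1* and *Pdyn* in POMC), beside 8.15%. The change with food deprivation differed between the neuron types for 3 (*Tac1*, *Pdyn* and *Nmb*), beside 4.58%. The genes were picked with these contrasts known, and nothing is read from the counts.

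Groups did not overlap for 3 precursors between FD and fed AGRP libraries, 0 between FD and fed POMC, 4 between AGRP and POMC in fed and 4 in FD mice. Over all genes this held for 7.65%, 2.35%, 8.93% and 11.4%. The comparisons of 1 neuron type share its fed or FD libraries with those between the types. The median log2 fold change of the 9 precursors was 2.57 in AGRP and 0.17 in POMC neurons with food deprivation, against -0.02 and -0.02 over all genes. The difference between the changes was 7.01 (SE 1.63) for *Tac1*, 2.74 (SE 0.44) for *Pdyn*, 2.62 (SE 0.61) for *Nmb* and 2.59 (SE 1.59) for *Nts* on the log2 scale. Without the 10 µl set *Nts* stood at 7.46 and was called, and *Tac1* and *Nmb* were not. Calls over all genes then fell to 359, from 757 with the set. Scaling by the ERCC spike-ins put the median of all genes at -0.93 in AGRP neurons, and *Pdyn* then stood at 2.29, *Nmb* at 1.57 and *Nts* at 4.03, none of them called. Over all genes 38 were called in AGRP neurons with this scaling, against 737 without it. It used spike-in reads per labelled µl and took no account of cell number, and the groups differ in their spike-in sets.

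**Figure D4:**
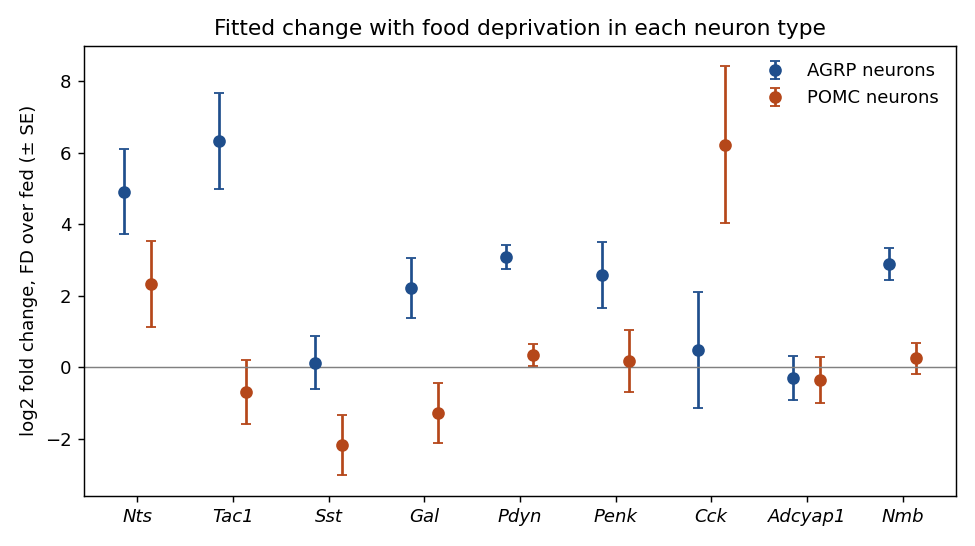
Points give the fitted log2 fold change of FD over fed mice for the 9 precursors tested in AGRP (blue) and POMC (orange) neurons, with bars of 1 SE. *Nts*, *Tac1*, *Pdyn* and *Nmb* lie at 2.87 or above in AGRP neurons, and in POMC neurons the SE bars are narrow for *Pdyn* and *Nmb*, near 0, and wide for *Cck* and *Nts*.

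The receptors of these peptides were taken as a list of textbook members, of which 22 were in the table and 19 were tested. The list was made with earlier results of these data known. The study had already reported *Ntsr1* and *Nmbr* as higher in AGRP neurons with food deprivation, so their q-values here are no independent test. With food deprivation 2 rose in AGRP neurons, *Ntsr1* and *Nmbr*, the receptors of neurotensin and neuromedin B, and 0 were called lower, beside 4.46% of all genes called. *Ntsr1* met the level criterion only through the POMC libraries, since its mean was under 20 CPM in both AGRP groups. The level criterion thus shaped the split into higher and lower calls, and no direction is read from it. *Sstr1*, a somatostatin receptor, and *Tacr1*, the substance P receptor, passed the q-value and missed only the level criterion, with log2 changes of -2.26 (SE 0.63, edgeR quasi-likelihood q = 0.0187) and -4.17 (SE 1.32, q = 0.0401). In POMC neurons 1 rose, *Oprk1*, the kappa opioid receptor of dynorphins, and 0 were called lower, beside 0.266% of all genes. The median log2 fold change over the 19 was -0.12 in AGRP and 0.34 in POMC neurons.

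*Ntsr1* was at 0, 0.23, 0.388, 0 and 2.33 TPM in fed AGRP libraries and 0.692, 15.4, 3.27, 19.9, 3.31 and 3.47 TPM in FD ones. Only FD library 1 lay within the fed range. It rose by 4.06 on the log2 scale (SE 0.86, edgeR quasi-likelihood q = 0.002) and the POMC libraries held 20.4 ± 7.02 TPM (n = 5) in fed and 26.3 ± 1.62 TPM (n = 5) in FD mice. FD AGRP libraries 2 and 4 lay within the fed POMC range, and the log2 difference of AGRP over POMC in FD mice was -1.47 (SE 0.72, edgeR quasi-likelihood q = 0.165). *Nmbr* was at 11.8, 5.08, 5.68, 4.25 and 24.4 TPM in fed AGRP and 32.4, 64.3, 34.6, 85.2, 131.7 and 38.5 TPM in FD AGRP libraries, with no overlap. It rose by 2.94 (SE 0.79, edgeR quasi-likelihood q = 0.0146), and without FD library 5 the q was 0.0531. In POMC libraries it was at 2.37 TPM at most. AGRP neurons of FD mice thus held more of both the precursor and the receptor transcript for neurotensin and for neuromedin B.

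*Oprk1* was at 7.56, 9.11, 6.26, 8.29 and 23.7 TPM in fed POMC libraries and at 124.7, 68.8, 42.7, 96.8 and 74.2 TPM in FD POMC libraries, with no overlap. It rose by 2.80 on the log2 scale (SE 0.50, edgeR quasi-likelihood q = 0.00344), and in AGRP neurons its log2 change was 0.09 (SE 0.45). The difference between the changes was called (log2 difference -2.71, SE 0.65, edgeR quasi-likelihood q = 0.01). For *Ntsr1* that difference was 3.84 (SE 1.11, edgeR quasi-likelihood q = 0.0324), and for *Nmbr*, which was near 0 in POMC neurons, 1.67 (SE 1.27, edgeR quasi-likelihood q = 0.512). *Pdyn*, the precursor of the *Oprk1* ligand, was higher in FD than in fed AGRP neurons, as above, and *Oprk1* was higher in FD than in fed POMC neurons. In FD mice *Pdyn* itself stood higher in POMC than in AGRP libraries, with means of 344 and 90.5 TPM. A link between the changes was not tested.

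**Figure D5:**
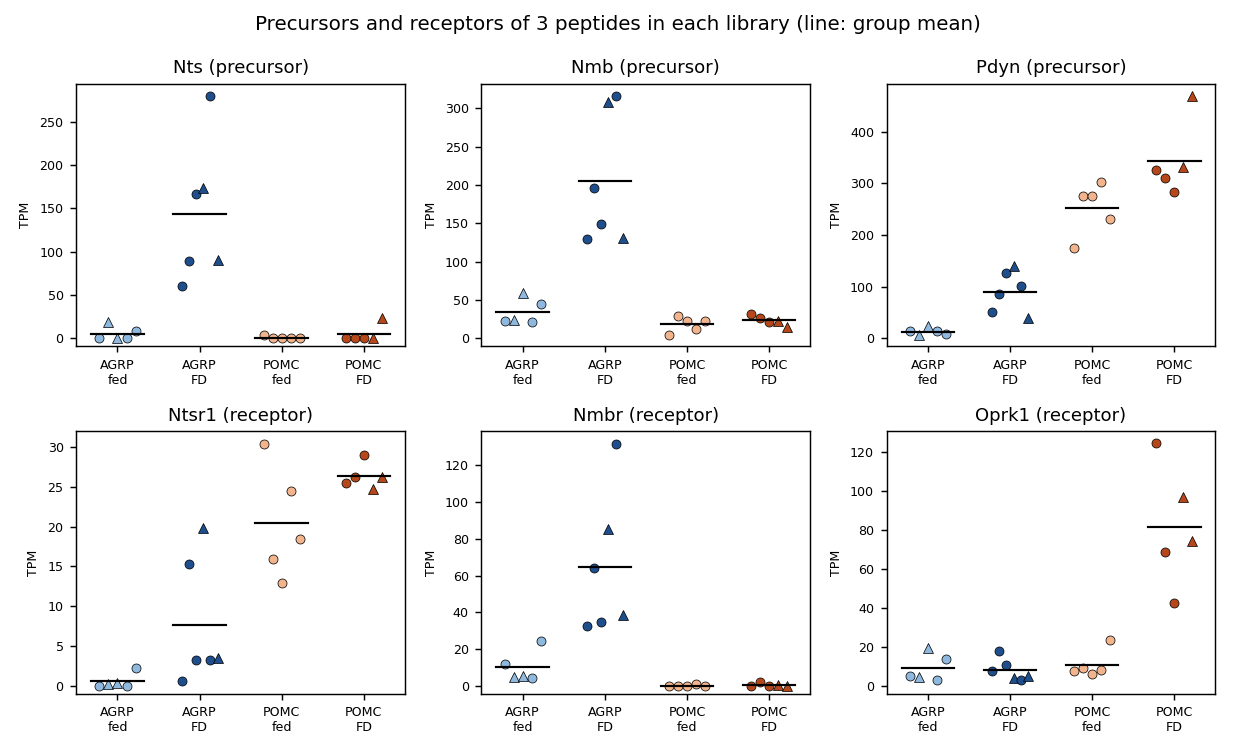
Levels in TPM of 3 precursors (upper row) and a receptor of each peptide (lower row) are plotted for every library, with a line at the group mean and triangles for the 10 µl spike-in set. *Nts*, *Nmb* and *Nmbr* are high in FD AGRP libraries, and *Oprk1* is high in FD POMC libraries, at 42.7 to 124.7 TPM.

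In fed mice 4 receptors were called between the neuron types, beside 4.01% of all genes: *Nmbr* was higher in AGRP neurons, and *Ntsr1*, *Oprm1*, the mu opioid receptor, and *Cckar*, a cholecystokinin receptor, were higher in POMC neurons. *Cckar* was at 99.8 ± 13.4 TPM (n = 5) in fed POMC and 0.413 ± 0.177 TPM (n = 5) in fed AGRP libraries (log2 difference -8.06, SE 0.56, edgeR quasi-likelihood q = 5.45e-12). *Oprm1* was at 44.8 ± 8.79 and 24.4 ± 2.93 TPM (log2 difference -1.06, SE 0.26, edgeR quasi-likelihood q = 0.00854). By the q-value alone 8 differed, the other 4 being *Oprd1*, higher in POMC neurons, and *Vipr1*, *Sstr2* and *Adcyap1r1*, higher in AGRP neurons, which missed the level or the fold criterion. The most abundant receptor in both was *Adcyap1r1*, the PACAP receptor PAC1, at 363 ± 62.1 TPM in fed AGRP and 219 ± 54.6 TPM in fed POMC libraries, while its ligand's precursor was at 9.85 and 13.4 TPM. *Sort1*, which binds neurotensin and sorts proteins to lysosomes, was at 43.3 ± 6.09 TPM in fed AGRP libraries.

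Of 36 other neuropeptide precursors listed, 12 passed the count filter and 0 were called in AGRP or POMC neurons with food deprivation or between the types in fed mice. None exceeded a mean of 20 CPM in a group, so the level criterion alone fixed these counts at 0. The 0 calls by limma-voom and DESeq2 were fixed in the same way and add nothing. By the edgeR q-value alone the counts were 2, 0 and 4, and at an unadjusted p under 0.05 they were 3, 1 and 6. *Pnoc*, the precursor of nociceptin, had the highest fed AGRP level of them, at 12.4 ± 4.14 TPM (n = 5), and stood at 1.39 ± 1.96 TPM (n = 6) in FD AGRP libraries, with no overlap, a log2 change of -3.02 (SE 0.86, edgeR quasi-likelihood q = 0.0211). *Vip*, named after its values were seen, was at 0 in all 5 fed AGRP libraries and at 0.413 to 13.8 TPM in the 6 FD ones (edgeR quasi-likelihood q = 0.0181). *Rln3* (8.66 ± 4.84 TPM) and *Grp* (7.25 ± 4.96 TPM) followed in fed AGRP neurons. In fed POMC neurons the leading ones were *Nppc*, the precursor of C-type natriuretic peptide, at 50.7 ± 26.3 TPM, *Galp* at 25.3 ± 37.8 TPM and *Trh* at 13.3 ± 7.98 TPM, each over 5 libraries. *Galp* was at 11.2, 92.0, 3.42, 2.94 and 16.7 TPM in fed POMC libraries 1 to 5, so its mean rests on library 2.

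For the 5 precursors whose mean passed 20 CPM in any group, the genes most like each were sought among 8198 by Pearson's r of log2(CPM + 1) over the 21 libraries, which share groups, so that r mostly follows the group means. *Nts* was closest to *Sgk1*, a kinase induced by glucocorticoids (r = 0.93), and *Atp6v1b2*, a subunit of the vesicular proton pump (r = 0.93). *Nmb* was closest to *Tro* (r = 0.94) and *P4hb*, a disulphide isomerase of the endoplasmic reticulum (r = 0.93). *Pdyn* was closest to *Mllt3* (r = 0.95) and *Prlr*, the prolactin receptor (r = 0.95), *Sst* to *Dlgap1*, a postsynaptic scaffold (r = 0.94), and *Lrrtm3* (r = 0.93), and *Tac1* to *Nwd2* (r = 0.84) and *B3gnt1* (r = 0.83). After the group means were subtracted, the closest were *Nr5a2* and *Gdi2* for *Nts*, *Ercc6* and *Nfat5* for *Nmb*, *Phtf2* and *Alcam* for *Pdyn*, *Sec24c* and *Wasf2* for *Sst*, and *Trim8* and *Abhd12* for *Tac1*, with r from 0.74 to 0.84. These 10 names did not recur among the 10 found with the group means kept.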

How the data were processed

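RNA-Seq libraries of 21 mice were analysed, each from 44 to 214 hand-sorted neurons and amplified before sequencing with no molecular identifiers. The authors aligned reads to mm10 with STAR 2.4.0i after trimming with cutadapt 1.7.1 and removing abundant sequences with Bowtie2 2.1.0, and counted them per gene with HTSeq 0.6.1p1 to give the deposited read counts. The authors also deposited TPM values. Here, R 4.3.3 and edgeR 4.0.16 fitted the counts of all 4 groups in 1 quasi-likelihood model after TMM scaling, over 16513 genes with CPM over 1 in at least 3 libraries. The 92 spike-in rows and 5 summary rows were left out. q-values are Benjamini-Hochberg adjusted over these genes. limma 3.58.1 and DESeq2 1.42.0, RLE and ERCC scaling, fits with no filter on counts or on only the groups compared, the replicate number or spike-in set as a block, cell number as a covariate, the q-value alone, and leaving out each library were alternatives, and leaving out the 10 µl set was added after the data were seen. The fits were tested on simulated data. Depth was 9822298 to 37663979 gene counts, and 3 reads were taken as the detection limit, which covers counting error only. The members and lists were chosen with earlier results of these data known. Named genes were all 10 members and, from the receptor and other-precursor lists, those called with food deprivation and the 3 with the highest mean TPM in each fed group, plus 2 correlated genes for each member over 20 CPM. Replicate numbers named different mice and did not pair them.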

Additional observations from a re-analysis of the deposited data

Results flagged for a closer look

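In the POMC and AGRP groups, 36 sets of 5 or 6 libraries were examined for a library far from the rest of its group by Dixon's test, and 5 stood apart. The test's chance rate of about 1 in 20 holds for normal values and not for skewed TPM near 0. The count is thus not compared with that rate. *Nts* was at 23.05 TPM in FD POMC library 5 and at 3.53 TPM in fed POMC library 1, in each case with the rest of the group under 1 TPM. *Tac2* was at 0.475 TPM in fed POMC library 2, with 0 in the others. *Pdyn* was at 470.1 TPM in FD POMC library 5, and *Adcyap1* at 22.1 TPM in FD AGRP library 3. FD POMC library 5 was thus apart for both *Nts* and *Pdyn*, and it belongs to the 10 µl spike-in set.

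The fitted change with food deprivation was larger in AGRP than in POMC neurons by 7.01 on the log2 scale for *Tac1*, 2.74 for *Pdyn* and 2.62 for *Nmb*. *Pdyn* and *Nmb* were higher in 6 of 6 FD AGRP libraries than in any fed one, while *Tac1* was at 3.81 TPM or more in 3 of 6 and at 1.45 TPM or less in the rest. *Tac1* met the level criterion through the POMC libraries. These genes were chosen with the contrast known, so the differences are a description and support nothing.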

How the results depend on the processing

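The counts of precursors called kept within 1.5 times under every alternative but ERCC scaling, limma-voom and the q-value alone. ERCC scaling, under which the median log2 change of all genes was -0.93 in AGRP and -1.28 in POMC neurons and the median of AGRP over POMC 0.82 in fed and 1.17 in FD mice, left 1 of 4 precursors called in AGRP neurons with food deprivation (*Tac1*), 3 of 5 between the types in FD mice and 1 of 3 for the difference between the changes, where the median was 0.36. Over all genes ERCC scaling left 38 calls in AGRP and 1 in POMC neurons with food deprivation, against 737 and 44 without it. Between the types it left 227 in fed and 418 in FD mice, against 662 and 1346. For the difference between the changes it left 25, against 757. Under ERCC scaling 0 receptors were called with food deprivation in AGRP or in POMC neurons, 2 between the types in fed mice, and 1 other precursor (*Nppc*) there. limma-voom called 1 precursor, *Pdyn*, for the difference between the changes and gave an AGRP median of -0.13. With the q-value alone 5 precursors, 8 receptors and 4 other precursors were called between the types in fed mice, and 4 receptors and 2 other precursors in AGRP neurons with food deprivation. With the compared groups alone 1 receptor was called in AGRP neurons. That fit held no POMC libraries, through which *Ntsr1* met the level criterion. The cause was not tested.

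With each library left out in turn, the precursors called were 4 to 4 in AGRP and 0 to 0 in POMC neurons with food deprivation, 3 to 4 and 4 to 5 between the types in fed and FD mice, and 3 to 4 for the difference between the changes. Receptors called were 1 to 2, 1 to 1 and 3 to 4, and other precursors 0 to 0, 0 to 0 and 0 to 1, the last with fed POMC library 3 or 5 left out (*Nppc*). *Nmbr* lost its call in AGRP neurons without FD library 5, and *Tac1* lost its call between the types in FD mice without FD POMC library 1. The *Nts* log2 change in AGRP neurons was 6.26 without fed library 2, and its AGRP over POMC difference in FD mice was 8.61 without FD POMC library 5. *Tac1* was not called between the types in FD mice with ERCC scaling, the compared groups alone, the cell number as a covariate or without the 10 µl set. With the compared groups alone the fed POMC libraries were not counted, and its mean of 15.9 CPM in FD POMC is under the level criterion. Without the 10 µl set, 4, 0, 3, 4 and 2 precursors were called in the 5 comparisons, beside 446, 34, 538, 1294 and 359 of all genes. The replicate numbers share only a number. With the replicate block 4, 0, 3, 5 and 3 precursors, 2, 1 and 4 receptors and 0 other precursors were called, as without it, and deviations of same-numbered libraries correlated at -0.21 to 0.13. No called log2 change reversed under any alternative. In amplified pools of 44 to 214 cells, levels near 1 TPM rest on few reads.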
